A study of Mus musculus with 50 samples.

Results

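Ttr, Gc, Azgp1 and Serpina1a, 4 of the 1000 gene targets of a CosMx panel, were followed through mouse liver sections of 18-month-old animals. They encode proteins that hepatocytes release into the blood, and were picked, with earlier results of these data in view, for counts that were higher in large segmented cells than in small ones. The Control group was wild-type C57BL/6 mice and the HIRA KO group was HIRA fl/fl C57BL/6 mice. Both groups had received AAV8-TBG-Cre, a virus whose Cre is driven by a hepatocyte promoter, at 6 months of age, and livers were taken 12 months later. HIRA is a chaperone that deposits the histone variant H3.3. Hira was not a target of the panel, so its deletion could not be checked here, and the Cre acts only in the hepatocytes it reaches.

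In CosMx imaging, fluorescent probes are read in cycles on a tissue section of 5 µm, and each decoded spot counts as 1 transcript of 1 target. The 50 fields of view, 25 per group, lay on 1 slide and formed 6 tissue areas, 3 per group, of 8 or 9 fields of view each. Genotype is labelled per field of view but the mouse is not, so the area was the replicate. P-values measure the spread between areas, except in fits to sums per field of view. The Control areas shared one side of the slide and those of HIRA KO the opposite side, so genotype and side of the slide cannot be told apart, while each slide row held 1 area of each group. Of 52132 segmented cells, 20842 were kept as hepatocyte-sized, with an outline of at least 15000 square pixels, and 28823 as smaller. Transcripts that fell in no segmented cell formed a class of their own, called outside. Hepatocyte-sized cells held between 450976 and 964396 gene counts per area. Their gene counts per 1000 square pixels were 5.50, 8.07 and 5.13 in the Control areas and 8.49, 9.83 and 9.90 in the HIRA KO areas, so detection per unit of tissue was higher in every HIRA KO area. Levels are therefore given as counts per 1000 gene counts of the same cells, and the part of detection in the differences below was not tested.

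The liver makes most of the proteins dissolved in plasma, and hepatocytes translate them on the rough endoplasmic reticulum and send them through the secretory pathway. Ttr encodes transthyretin, which carries thyroxine and, together with retinol-binding protein, vitamin A. Gc encodes the vitamin D-binding protein, which also binds actin released from damaged cells. Azgp1 encodes zinc-alpha-2-glycoprotein, a relative of MHC class I molecules linked to lipid mobilisation. Serpina1a encodes one of the alpha-1-antitrypsins of the mouse, and its product inhibits neutrophil elastase.

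Serpina1a is 1 of 5 near-identical mouse genes, and the sequences show how far a probe could tell them apart. Over 1239 coding bases, Serpina1b was 97.0%, Serpina1c 98.5%, Serpina1d 96.6% and Serpina1e 96.5% identical to Serpina1a. The first stretch below lies in exon 2 of Serpina1a at chr12:103857946-103857995 on the minus strand (GRCm38) and is the same in all 5 genes. The others are the 50 bases of exon 5, at chr12:103853766-103853815, where the copies differed most, with bases that differ from Serpina1a in capitals.
All 5 genes, exon 2: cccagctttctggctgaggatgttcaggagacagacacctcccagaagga
Serpina1a, exon 5: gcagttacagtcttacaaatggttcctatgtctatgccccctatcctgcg
Serpina1b, exon 5: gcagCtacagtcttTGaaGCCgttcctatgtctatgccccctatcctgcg
Serpina1c, exon 5: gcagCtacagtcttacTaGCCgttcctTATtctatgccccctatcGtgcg
Serpina1d, exon 5: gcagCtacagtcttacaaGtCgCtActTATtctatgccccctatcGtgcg
Serpina1e, exon 5: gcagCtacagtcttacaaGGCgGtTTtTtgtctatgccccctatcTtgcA
Of 1532 windows of 50 bases in the Serpina1a transcript, 919 (59.99%) were found unchanged in at least 1 of the other copies. Probe sequences were not given in the sources used here, so counts named Serpina1a may hold transcripts of the other copies.

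The start regions of Gc, Azgp1 and Serpina1a are shown with a short motif that Gc and Serpina1a share, whose part in the levels was not tested. The motif GTTAAT is the core of sites of hepatocyte nuclear factor 1 (HNF1), a transcription factor of liver genes. It was searched on both strands from 250 bases before to 50 bases after the transcription start (RefSeq, GRCm38.p6), and 7.10% of 32851 such regions of 300 bases hold it. Matches are in capitals.
Gc, chr5:89457849-89458148, minus strand: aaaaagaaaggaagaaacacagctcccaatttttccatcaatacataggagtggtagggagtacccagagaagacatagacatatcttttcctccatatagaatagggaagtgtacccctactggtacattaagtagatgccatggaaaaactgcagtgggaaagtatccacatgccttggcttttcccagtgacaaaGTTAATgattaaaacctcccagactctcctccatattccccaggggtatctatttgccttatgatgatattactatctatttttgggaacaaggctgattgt
Azgp1, chr5:137981271-137981570, plus strand: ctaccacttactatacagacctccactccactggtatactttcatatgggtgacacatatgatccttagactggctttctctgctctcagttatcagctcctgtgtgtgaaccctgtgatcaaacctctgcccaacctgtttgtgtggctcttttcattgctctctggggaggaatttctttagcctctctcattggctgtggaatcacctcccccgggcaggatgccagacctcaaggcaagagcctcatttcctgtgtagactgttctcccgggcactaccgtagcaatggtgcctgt
Serpina1a, chr12:103863570-103863869, minus strand: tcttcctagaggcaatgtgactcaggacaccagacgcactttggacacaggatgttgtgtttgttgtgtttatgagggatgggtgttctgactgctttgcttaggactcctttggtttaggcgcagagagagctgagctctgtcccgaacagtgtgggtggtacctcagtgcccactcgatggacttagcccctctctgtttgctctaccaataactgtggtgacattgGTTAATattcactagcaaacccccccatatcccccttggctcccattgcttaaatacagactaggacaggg
The match began 52 bases before the start in Gc and 21 bases before it in Serpina1a, and these letters were not in the Azgp1 window. The 2 regions differed beyond this core. In Gc it lay in a stretch with at most 2 mismatches to the full, longer HNF1 site, which 1.36% of the regions hold. No such stretch was found in the Serpina1a window at this limit of 2 mismatches. A match of letters is not a measured binding site, and the lack of one does not show that HNF1 does not bind there.

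Ttr gave more counts than any other target in hepatocyte-sized cells of all 6 areas. Its level was 19.4, 22.97 and 26.1 counts per 1000 gene counts in the Control areas and 33.7, 58.0 and 63.3 in the HIRA KO areas. The groups did not overlap, and their means were 22.8 ± 3.33 and 51.6 ± 15.8 (SD, n = 3 areas each; p = 0.1 by a two-sided exact permutation test, which cannot go lower with 3 against 3). HIRA KO area 1 was the lowest of its group and stood closer to the highest Control area than to the other HIRA KO areas. Gc, the second member by counts, followed the same order with less spread among the Control areas. Its level was 5.76, 5.78 and 5.97 in the Control areas and 9.04, 10.1 and 12.2 in the HIRA KO areas. The means were 5.84 ± 0.116 and 10.4 ± 1.58 (SD, n = 3 each; exact permutation p = 0.1).

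Azgp1 differed far less. Its level was 2.82, 2.87 and 2.79 in the Control areas and 3.46, 3.02 and 3.47 in the HIRA KO areas, with no overlap (means 2.83 ± 0.0387 and 3.32 ± 0.256, SD, n = 3 each; exact permutation p = 0.1). Serpina1a, in contrast, overlapped. It stood at 2.95, 2.50 and 2.35 in the Control areas and at 2.96, 2.03 and 2.32 in the HIRA KO areas (means 2.60 ± 0.311 and 2.44 ± 0.476, SD, n = 3 each; exact permutation p = 0.6). Thus 3 of the 4 members kept the lowest HIRA KO area above the highest Control area, beside 3.01% of the 998 targets with counts (21.3% did not overlap in either direction). Because the members were picked with these levels known, nothing is read from that count. The lowest member value, that of Serpina1a, was still 2.99 times the highest of the 10 negative probes in the same area.

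**Figure D1:**
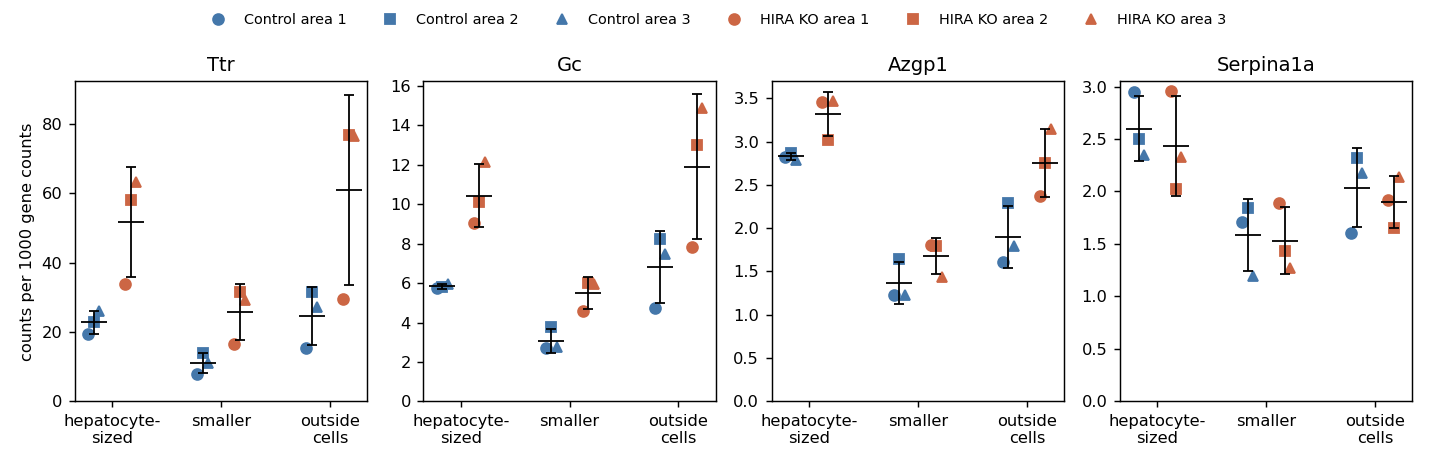
Level of each member (counts per 1000 gene counts) in hepatocyte-sized cells, smaller cells and transcripts outside cells, with 1 point per tissue area, Control in blue and HIRA KO in red. Ttr and Gc stand higher in all HIRA KO areas in both cell classes, and Serpina1a overlaps in every class.

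The spread between areas was also weighed in a fit over all 998 targets. With edgeR's quasi-likelihood test and Benjamini-Hochberg adjustment, none of the members passed, beside 0.1% of all targets (1 target, Igha, the immunoglobulin A heavy chain, higher in HIRA KO by 1.13 on the log2 scale). The log2 fold change of HIRA KO over Control was 1.31 for Ttr (SE 0.46, edgeR adjusted p = 0.43) and 0.97 for Gc (SE 0.26, edgeR adjusted p = 0.27). It was 0.35 for Azgp1 (SE 0.18, edgeR adjusted p = 0.58) and 0.03 for Serpina1a (SE 0.18, edgeR adjusted p = 0.98), which turned to -0.09 when library size alone set the scale. The choice of test decided the call for Ttr and Gc. DESeq2 gave an adjusted p of 0.000696 for both, and an edgeR fit with the slide row as a block gave 0.0019 for Ttr and 0.00057 for Gc. Sums per field of view, fitted with limma and the area as a random block, gave 0.0023 and 0.0004. Azgp1 and Serpina1a passed under none of these fits. In the limma fit, here and below, the units were fields of view, and all targets shared a single correlation within areas. Its p-values therefore do not measure the spread of Ttr or Gc between areas. Since the members were chosen on these samples, the p-values are no independent evidence.

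Within each slide row, which held 1 area of each group, Ttr was 1.74, 2.52 and 2.43 times as high in HIRA KO as in Control. Gc was 1.57, 1.75 and 2.04 times as high, and Azgp1 1.23, 1.05 and 1.24 times. Serpina1a gave ratios of 1.005, 0.811 and 0.99, so its direction was not shared by the rows. Counted per cell rather than per 1000 gene counts, the HIRA KO to Control ratio of the means was 3.39 for Ttr, 2.64 for Gc, 1.70 for Azgp1 and 1.35 for Serpina1a. Median counts per cell were 131, 201 and 133 in the Control areas and 190, 234 and 258 in the HIRA KO areas. Per cell, the ratio exceeded 1 even for Serpina1a, whose share of counts did not separate the groups.

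The summed level of hepatocyte genes other than the members (Apoa1, Arg1, Glul, Apoe, Apoc1, Glud1 and Vtn) was 33.2 to 43.5 in Control and 41.8 to 47.5 in HIRA KO areas and overlapped. Markers of other cells inside hepatocyte-sized outlines also overlapped for all 6 lists. The 5 Kupffer markers summed to 5.86 to 8.42 in Control and 6.07 to 10.4 in HIRA KO areas, and the 9 lymphoid markers to 7.34 to 8.16 and 7.14 to 9.46. The 7 endothelial markers gave 6.31 to 7.67 and 6.33 to 6.36, the 8 stellate or fibroblast markers 8.10 to 12.0 and 9.27 to 9.81, the 9 biliary markers 6.18 to 7.04 and 5.29 to 6.82, and the 2 neutrophil markers 1.44 to 1.55 and 1.41 to 1.52. Of these, 1 lymphoid marker had no counts at all.

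Other secreted plasma proteins on the panel gave a frame for the members. None of 14 passed in either direction, and their median log2 fold change was 0.26 beside -0.002 over all targets. Vtn (vitronectin, an adhesion protein of plasma) stood at 0.95 (SE 0.19, edgeR adjusted p = 0.094) and Selenop (the selenium carrier selenoprotein P) at 0.95 (SE 0.30, edgeR adjusted p = 0.28). Of 10 acute-phase genes 0 passed (median 0.11), with Fgg (fibrinogen gamma) at 0.57 (SE 0.20, edgeR adjusted p = 0.43) and Il1r1, a receptor of interleukin 1, at -0.36 (SE 0.10, edgeR adjusted p = 0.28). Of 10 genes of the secretory pathway and chaperones 0 passed as well (median 0.08), with Hsp90b1, the HSP90 of the endoplasmic reticulum, at 0.52 (SE 0.16, edgeR adjusted p = 0.28) and Hspb1, a small heat shock protein, at -0.35 (SE 0.11, edgeR adjusted p = 0.28). Partners and receptors of the members' proteins, 6 targets, had 0 calls and a median of -0.03, among them Elane, the elastase that alpha-1-antitrypsin inhibits, at -0.14 (SE 0.11, edgeR adjusted p = 0.75). A higher level was not confined to secreted proteins. The 2 targets of mitochondrial ATP synthase, Atp5b (0.63, SE 0.18) and Atp5e (0.61, SE 0.19), had a median of 0.62 and 0 calls. The 11 hepatocyte enzymes and transporters had a median of 0.03 and 0 calls, with Gpx1 at 0.75 (SE 0.31) and Fasn at -0.28 (SE 0.16).

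Smaller cells carried the members too. Ttr stood at 7.99, 13.9 and 11.2 in the Control areas and 16.4, 31.4 and 29.3 in the HIRA KO areas. Gc stood at 2.69, 3.75 and 2.75 against 4.58, 5.98 and 5.98. Both separated the groups, with HIRA KO higher, as 2.1% of all targets did (12.2% in either direction). Azgp1 (1.23, 1.64 and 1.22 against 1.80, 1.79 and 1.44) and Serpina1a (1.71, 1.85 and 1.19 against 1.89, 1.44 and 1.27) overlapped. No member passed the fit in smaller cells, where 0.1% of targets were called, and the log2 fold changes were 1.32 (SE 0.51), 0.95 (SE 0.28), 0.39 (SE 0.16) and 0.05 (SE 0.18) in the order Ttr, Gc, Azgp1, Serpina1a, with edgeR adjusted p = 0.75, 0.51, 0.75 and 0.96. Here too the choice of test decided the call, since the adjusted p of Ttr and Gc was 0.00063 and 0.024 in DESeq2, 0.041 and 0.023 with the slide row as a block, and 0.0012 and 0.0006 in sums per field of view with limma. The difference between the size classes was tested by an interaction term. It was -0.05 (SE 0.15) for Ttr, -0.01 (SE 0.15) for Gc, -0.06 (SE 0.15) for Azgp1 and -0.04 (SE 0.14) for Serpina1a on the log2 scale, with adjusted p from 0.97 to 0.99, and 0% of targets passed (42 had an unadjusted p under 0.05). A genotype difference of different size in the classes was not detectable, which does not show that they moved alike.

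Outside cells, Ttr was 15.3, 31.5 and 27.2 in the Control areas and 29.4, 76.8 and 76.5 in the HIRA KO areas, and Gc 4.75, 8.22 and 7.47 against 7.81, 13.02 and 14.9. Both overlapped, because HIRA KO area 1 fell below Control area 2. Azgp1 separated the groups there, at 1.61, 2.29 and 1.79 against 2.37, 2.75 and 3.14. Of all targets, 17.8% did so in either direction and 1.7% with HIRA KO higher. Serpina1a overlapped (1.61, 2.32 and 2.18 against 1.92, 1.65 and 2.14). None of the 998 targets passed edgeR's quasi-likelihood test outside cells (58 had an unadjusted p under 0.05, and DESeq2 also called 0). The slide row as a block called 4 targets and neither Ttr nor Gc, whereas sums per field of view with limma called 7, among them Ttr (adjusted p = 0.00042) and Gc (adjusted p = 0.0011).

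Cell size chose the members, so its values are given without a test. Averaged over the areas, the level in hepatocyte-sized cells was 2.06 times that in smaller cells for Ttr, 1.91 for Gc, 2.03 for Azgp1 and 1.62 for Serpina1a. Among 659 targets above the highest negative probe these ratios ranked 3, 7, 4 and 15. Outside cells the level relative to hepatocyte-sized cells was 1.08 for Ttr and 1.12 for Gc, but 0.741 for Azgp1 and 0.782 for Serpina1a, so the pairs parted once transcripts were not inside an outline. Just below the size limit, in 2213 cells of 13000 to 15000 square pixels, Ttr stood at 32.9, Gc at 7.32, Azgp1 at 2.48 and Serpina1a at 2.13. Just above it, in 2148 cells of 15000 to 17000 square pixels, the values were 34.7, 8.05, 2.60 and 2.24. No step was seen at the limit.

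**Figure D2:**
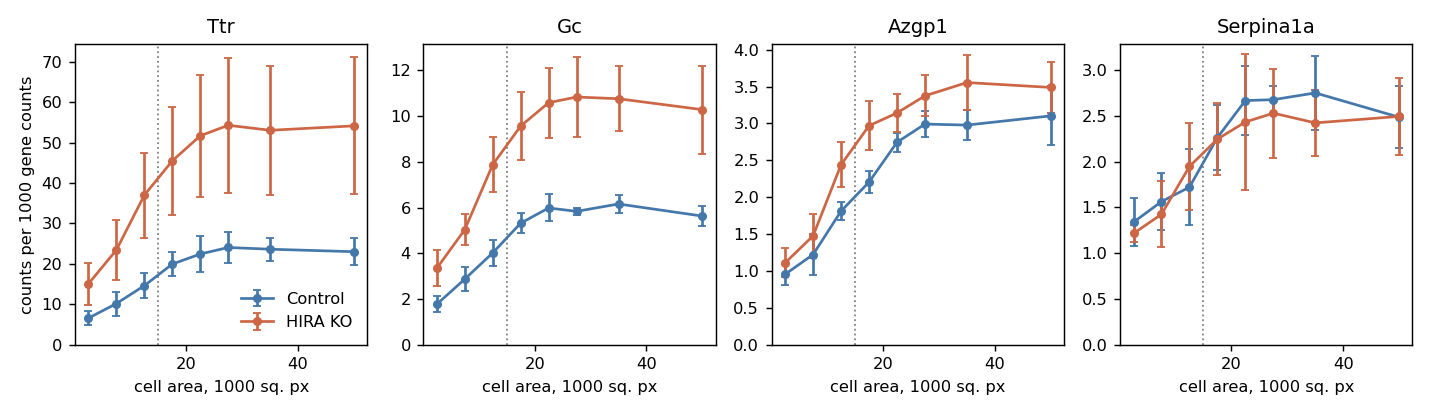
Level of each member (counts per 1000 gene counts) against cell area in 1000 square pixels, as the mean and SD of 3 tissue areas per group, with the size limit as a dotted line. For cells under 5000 square pixels the mean level of Ttr was 6.59 in Control and 15.1 in HIRA KO areas, and the curves climb without a step at the limit.

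Smaller cells that held markers of other cell types still held members. In 1240 smaller cells with Kupffer markers, Ttr was 3.86, 5.21 and 3.94 in the Control areas and 9.62, 16.7 and 15.8 in the HIRA KO areas. Between 32.3% and 77.3% of these cells per area had a Ttr count, at a median depth of 143 counts. In 1573 stellate or fibroblast marker cells Ttr was 3.58 to 14.6, in 500 endothelial marker cells 4.38 to 25.4 and in 1335 lymphoid marker cells 1.14 to 15.6. Ttr in lymphoid marker cells overlapped between the groups, as it did in 473 biliary marker cells (5.63 to 19.9) and 72 neutrophil marker cells (7.52 to 28.4). All these levels lay below those of the hepatocyte-sized cells of the same areas, except in neutrophil marker cells of Control area 2 (28.4 against 22.97). That set had as few as 2 cells in an area. Most smaller cells, 23630, held no marker set, and their Ttr was 9.95 to 43.3. In smaller cells with at most 1 hepatocyte-sized cell among their 10 nearest neighbours Ttr was 3.55, 14.1 and 10.6 in the Control areas and 9.42, 18.99 and 11.3 in the HIRA KO areas. In those with 8 to 10 it was 12.4, 12.6 and 12.2 against 29.3, 43.01 and 39.1. It was thus higher among hepatocyte-sized neighbours in all HIRA KO areas, while in Control only area 1 stood clearly higher and area 2 was lower. Whether these counts were made by the cell or assigned to it from a neighbour was not tested.

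Inside hepatocyte-sized cells the members divided into pairs by compartment, the nucleus against the rest of the outline. The share of Ttr transcripts over the nucleus was 29.4%, 29.02% and 37.2% in the Control areas and 19.6%, 18.5% and 21.2% in the HIRA KO areas. For Gc it was 32.02%, 26.1% and 26.9% against 21.4%, 22.2% and 20.1%. Azgp1 lay much more over the nucleus, at 59.4%, 52.8% and 55.8% against 38.004%, 41.5% and 44.1%. Serpina1a resembled it, at 63.0%, 57.0% and 48.7% against 46.9%, 54.2% and 40.2%. Ttr, Gc and Azgp1 had lower shares in every HIRA KO area (exact permutation test, p = 0.1 each) and Serpina1a overlapped (exact p = 0.2). The share at the membrane was higher in every HIRA KO area for every member, Serpina1a included (exact permutation p = 0.1 each). Its Control and HIRA KO means were 16.3% and 24.5% for Ttr and 18.1% and 24.6% for Gc. They were 11.2% and 17.8% for Azgp1 and 10.6% and 17.1% for Serpina1a. The share in the cytoplasm overlapped for Ttr, Gc and Serpina1a, and only that of Azgp1 was higher in every HIRA KO area. The lower nuclear share was not peculiar to the members. Apoa1, Apoc1, Apoe, Vtn and Fgg also had lower shares in every HIRA KO area, while Arg1 and Glul overlapped. For Vtn the share was 40.96% to 45.7% in the Control areas and 28.9% to 30.97% in the HIRA KO areas.

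Ranked from the lowest mean nuclear share among 888 targets, Gc was 7, Ttr 10, Azgp1 556 and Serpina1a 657. The groups failed to overlap for 9.57% of those targets, and all 85 were lower in HIRA KO. Over all targets the nuclear share was 50.6%, 51.2% and 41.4% in the Control areas and 40.8%, 42.6% and 39.5% in the HIRA KO areas. Neat1, an RNA that stays in the nucleus, was at 92.7%, 93.0% and 94.2% against 88.8%, 86.6% and 86.9%, while the nucleus covered 17.2% to 17.9% of the cell area in Control and 18.2% to 20.4% in HIRA KO areas. The shift of the members was therefore measured beside a shift of the same direction in Neat1, and what part it takes was not tested.

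Taking each compartment by itself, per 1000 gene counts of that compartment, Azgp1 over the nucleus was 3.34 ± 0.402 in Control and 3.35 ± 0.478 in HIRA KO areas, whereas in cytoplasm and membrane it was 2.40 ± 0.341 and 3.30 ± 0.286 with no overlap (SD, n = 3 each; exact permutation p = 0.1). Ttr in cytoplasm and membrane was 29.7 ± 3.21 and 70.1 ± 21.1, with no overlap, and over the nucleus 15.9 ± 6.54 and 25.1 ± 8.86, with overlap. Gc separated the groups in both (3.49 ± 0.486 and 5.41 ± 0.725 over the nucleus, 8.04 ± 0.653 and 13.9 ± 2.04 elsewhere).

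**Figure D3:**
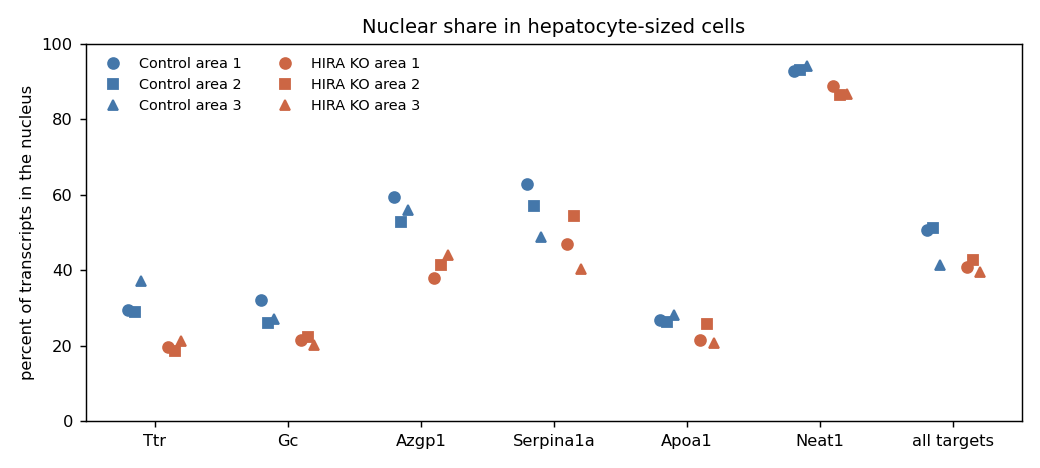
Percent of transcripts over the nucleus in hepatocyte-sized cells, with 1 point per tissue area, Control in blue and HIRA KO in red. Ttr and Gc lie between 18.5% and 37.2%, Azgp1 and Serpina1a between 38.004% and 63.0%.

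Cell-to-cell spread was compared at equal depth, after each hepatocyte-sized cell was thinned to 100 counts and shallower cells were left out, which kept 2842, 3343 and 2273 cells in the Control areas and 2868, 3713 and 3049 in the HIRA KO areas. Over the 6 areas together, Ttr had the highest variance over mean of 35 targets with enough counts. In the Control areas alone the target Clu was higher, with a mean of 1.90 beside 1.80 for Ttr. In the HIRA KO areas Clu had a mean of 1.87 beside 2.96 for Ttr. By area, the Ttr values were 1.66, 1.87 and 1.86 in Control and 2.52, 4.17 and 2.20 in HIRA KO. A value of 1 is what random counting gives. This ratio can grow with the mean, which at this depth was 2.25 ± 0.310 in Control and 5.15 ± 1.51 in HIRA KO areas (SD, n = 3 each), so it is not a measure of spread apart from level. The difference of means was 0.575 at 50 counts per cell, 1.78 at 150 and 5.70 without thinning. The groups did not overlap, as was the case for 11.4% of those targets (4 of 35) in either direction. Only 1 of them, Ttr, was higher in all HIRA KO areas. HIRA KO area 2 set much of the size, since the difference of means was 1.17 with it and 0.565 without it. Measured within single fields of view, an alternative chosen after seeing the data, the Ttr values were 1.43, 1.44 and 1.64 in the Control areas and 2.16, 2.52 and 2.01 in the HIRA KO areas, and still did not overlap. Gc ranked 8 (1.18, 1.22 and 1.28 against 1.30, 1.28 and 1.25, overlapping), Serpina1a ranked 32 and Azgp1 34 of 35, both between 1.03 and 1.12 in every area.

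The share of cells without a Ttr count at this depth was 22.6%, 19.7% and 16.2% in the Control areas and 11.1%, 6.84% and 2.49% in the HIRA KO areas. Cells at 10 or more of 100 counts made up 0.352%, 0.538% and 1.14% in the Control areas and 4.22%, 17.6% and 19.8% in the HIRA KO areas. The higher mean therefore went with fewer cells at 0 and with more cells at the top. For Gc the share without a count was 59.4%, 58.7% and 60.6% against 44.6%, 40.5% and 32.99%. Before thinning, the highest Ttr count in a single cell was 138, in HIRA KO area 3.

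**Figure D4:**
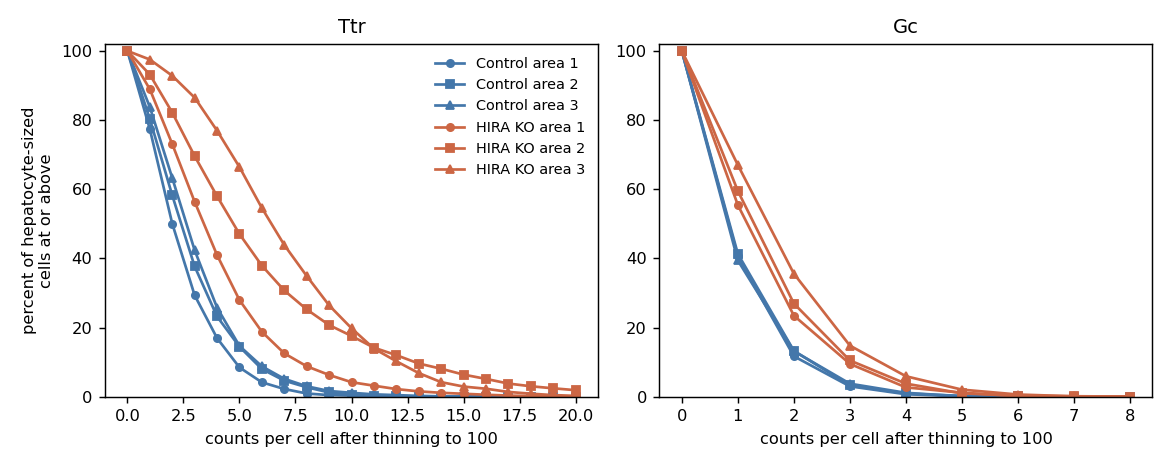
Percent of hepatocyte-sized cells at or above each count after thinning to 100 counts per cell, with 1 line per tissue area, Control in blue and HIRA KO in red. The Ttr and Gc lines of the HIRA KO areas lie above those of the Control areas.

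Levels of neighbouring cells correlated more for Ttr than for the other members. The correlation of a cell's Ttr with the mean of its 10 nearest hepatocyte-sized cells was 0.360 to 0.691 per area (median 0.435, over the same thinned cells, which share fields of view). It was 0.0579 to 0.196 for Gc, -0.0311 to 0.0925 for Azgp1 and 0.00623 to 0.0361 for Serpina1a, beside 0.228 to 0.663 for Glul, a gene confined to the cells around the central vein. The mean count per thinned cell was 2.25 in Control and 5.15 in HIRA KO areas for Ttr, and 0.577 and 1.07 for Gc. For Azgp1 it was 0.278 and 0.333, and for Serpina1a 0.257 and 0.244. Few counts per cell weaken such a correlation, and their part in the order of the members was not tested. From cell to cell, Ttr and Gc correlated at 0.0945 to 0.286.

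Fields of view showed the patchiness directly. Ttr ran from 13.8 to 32.9, 12.1 to 39.1 and 19.02 to 41.3 in the 3 Control areas and from 19.9 to 52.6, 25.4 to 104 and 47.8 to 77.3 in the HIRA KO areas, so single fields of the groups overlapped although the areas did not. The targets most like each member over the 50 fields, by Pearson r of log2 values, were Gpx1 (0.919), Gc (0.882) and Atp5b (0.848) for Ttr and Ttr (0.882), Apoe (0.829) and Vtn (0.819) for Gc. Azgp1 was most like Apoc1 (0.660), Apoa1 (0.647) and Sod1 (0.634). Serpina1a had weaker matches, among them Plac9 (0.523) and Ifna (0.472). These 2 stood at only 0.966 and 1.05 counts per 1000 gene counts, beside 0.410 to 0.529 per negative probe in the areas. With area means removed they matched Serpina1a at 0.237 and 0.178. Fields of 1 area are not independent, and with area means removed Ttr and Gc correlated at 0.730. Detection moved with the levels too. Counts per unit of cell area correlated with the level at 0.688 for Ttr, 0.687 for Gc, 0.378 for Azgp1 and -0.236 for Serpina1a over the 50 fields, and at 0.536, 0.400, 0.413 and 0.0943 with area means removed.

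**Figure D5:**
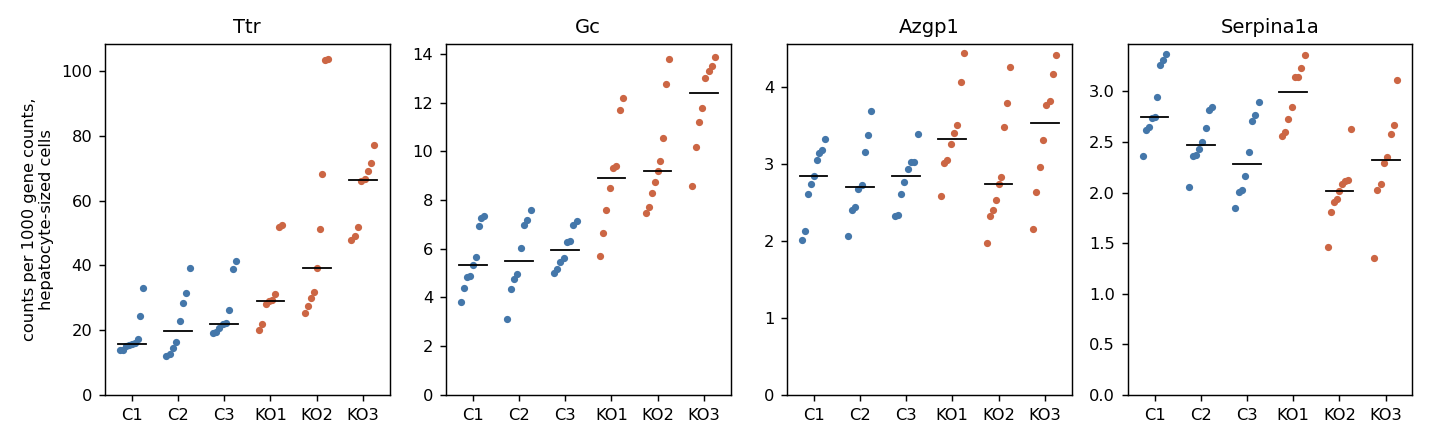
Level of each member (counts per 1000 gene counts, hepatocyte-sized cells) in every field of view, sorted within the tissue area, with the median as a bar, Control areas (C1 to C3) in blue and HIRA KO areas (KO1 to KO3) in red. Ttr reaches 104 in HIRA KO area 2 and at most 41.3 in a Control area.

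Liver genes are often zoned between the central vein and the portal tract, and position was tested apart from the choice of members. Glul-high cells, the top 2% of hepatocyte-sized cells by Glul per area, marked the central side, and smaller cells with biliary markers the portal side. Glul itself, in the nearest against the farthest of 3 equal groups of cells by distance, was higher near Glul-high cells and lower near biliary marker cells in 6 of 6 areas. Glul-high cells were picked by Glul, so the first of these is no independent check. Near over far from them, Glul was only 1.18 in HIRA KO area 2, 1.32 in HIRA KO area 1 and 1.39 in Control area 1. In the other areas it was 1.80 to 2.79. From biliary marker cells it was 0.885 in HIRA KO area 2 and 0.220 to 0.716 elsewhere. None of the members passed in either comparison, beside 0.301% and 0.501% of targets called. Near against far from Glul-high cells the log2 fold changes were 0.05 (SE 0.17) for Ttr, -0.11 (SE 0.12) for Gc, -0.09 (SE 0.09) for Azgp1 and -0.13 (SE 0.08) for Serpina1a. Near against far from biliary marker cells they were -0.12 (SE 0.11), 0.03 (SE 0.09), 0.12 (SE 0.07) and 0.05 (SE 0.08), with edgeR adjusted p from 0.64 to 0.98 over both comparisons. Control area 2 had only 9 biliary marker cells, so its zones are loosely set. Its far group also lay at a median of 12761 pixels from Glul-high cells, beside 1551 to 3956 pixels in the other areas. The Ttr value near Glul-high cells joins opposed areas. Near over far was 1.71 in Control area 2, 0.650 in HIRA KO area 2 and 0.992 to 1.08 in the rest.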

How the data were processed

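The authors deposited raw transcript counts per target and segmented cell, cell areas, positions and a table of single transcripts with their compartment; decoding and segmentation were done on the platform. The segmentation software and the pixel size are not given in the sources used here. The members and gene lists were chosen with earlier results of these data known. Following the study's filter, 2467 cells were dropped because they held under 20 counts or because their outline exceeded 5 times 10967 square pixels, the geometric mean of all outlines. Counts were summed per tissue area and cell class. The 2 targets without any count and the negative probes entered no test. Sums were fitted with edgeR 4.0.16 (R 4.3.3; TMM, filterByExpr, Benjamini-Hochberg at 0.05), with DESeq2 1.42.0 and limma 3.58.1 as alternatives, and the fit was tested on simulated data. Scaling, filters, size limits, the slide row as a block and leaving out each area were further alternatives. TMM and library size scaling differed by -0.12 (log2) in the median target. Single values were compared by two-sided exact permutation tests over areas. Besides the members, targets were named as the 3 most alike over fields, called targets and up to 2 per direction of a list by p; 1 target this rule names is not reported here. Coordinates come from GENCODE M21 and RefSeq (GRCm38).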

Additional observations from a re-analysis of the deposited data

How the results depend on the processing

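Ttr and Gc kept a positive log2 fold change in hepatocyte-sized cells under all 15 alternatives (1.09 to 1.57 and 0.79 to 1.10). They passed only in DESeq2 (1.32 and 0.97), with the slide row as a block (1.26 and 0.95) and in sums per field of view (limma-voom, 1.23 and 0.92); the cause was not tested. Called targets numbered 15, 44 and 29 there instead of 1, were 4 at an area minimum of 12000 square pixels, and ranged from 0 to 4 when 1 area was left out (0 without Control area 2; for HIRA KO, 4 when area 2 was dropped and 2 when area 3 was). In smaller cells the count was 5, 9 and 12 in the same 3 fits, 2 at a limit of 12000 square pixels and 1 to 2 with 1 area left out (2 without Control area 1); outside cells it was 4 with the row block and 7 per field of view, and 0 with any 1 area left out. Serpina1a changed sign with library size alone (-0.093 in hepatocyte-sized cells, -0.046 in smaller cells, -0.099 outside), at a limit of 10000 square pixels in smaller cells (-0.058) and per field of view outside cells (-0.048), and ranged from -0.092 to 0.15, -0.094 to 0.13 and -0.093 to 0.18 with 1 area left out. Near Glul-high cells 6 targets passed with a top 5%, where Ttr was -0.12, and 1 to 3 with 1 area left out (1 without Control area 1), where Ttr ran from -0.10 to 0.21; with a top 1% Gc was 0.088 and Azgp1 0.012. Near biliary marker cells 8 passed with 4 distance groups in place of 3 and 4 to 8 with 1 area left out (8 without HIRA KO area 1), where Gc ran from -0.011 to 0.11 and Serpina1a from -0.022 to 0.105. Non-overlapping nuclear shares numbered 50 without membrane transcripts, and spreads 9 without thinning. The fit with the slide row as a block is the one that pairs areas; the labels give no replicate number that pairs them.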
